A study of Mus musculus with 12 samples.

Results

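The annexins and their S100 partners were described here as a family of 10 genes, Anxa1, Anxa2, Anxa3, Anxa5, Anxa6, Anxa7, S100a4, S100a6, S100a10 and S100a11. They were listed by name as calcium-dependent proteins of the plasma membrane and its repair, but with earlier results of these data known. All 10 were found among the 24187 genes of the count table, and all 10 passed the filter on low counts. Liver RNA was sequenced from 12 mice, of which 3 were untreated control mice, 5 had received acetaminophen (paracetamol, APAP) followed by PBS vehicle, and 4 had received APAP followed by human alternatively activated macrophages (hAAMs). APAP overdose kills hepatocytes around the central veins, and hAAMs are macrophages grown from human donor monocytes with CSF1, polarised with IL-4 and IL-13, frozen and thawed before injection. No allele or transgene was carried by any group, and the hAAM-treated mice kept their own macrophages. The sample labels give an APAP dose of 350 mg/kg, the methods name 350 or 500 mg/kg without saying which the sequenced mice received, and the sequencing is shown beside the severe model, for which 500 mg/kg is given. In that model vehicle or 1000000 hAAMs were injected into the tail vein 16 h after APAP, and the cull is placed at 32 h or at 36 h after APAP in different places. Mice were 10 to 12 weeks old by the methods, which name the strain as C57BL/6 J in one place and, for the APAP experiments, as C57BL6/JOlaHsd in another. The labels give neither strain nor sex. Over the livers the Y-linked gene Ddx3y had 3064 to 4281 counts and Xist 10 to 149, the pattern of male mice.

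Annexins bind acidic phospholipids when calcium rises, which happens where the plasma membrane is torn, and there they gather into arrays that hold and close the edges of the wound. Several annexins work with a small calcium-binding S100 protein. A dimer of S100a10 joins Anxa2 molecules into a tetramer, S100a11 partners Anxa1 and also binds Anxa2, and S100a6 and S100a4 bind several annexins as well as the cytoskeleton. In healthy liver, hepatocytes express Anxa6 but little Anxa1 or Anxa2, which are mostly made by bile duct, endothelial, stellate and immune cells.

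The S100 members lie in the S100 gene cluster on chromosome 3 (GRCm38). S100a4 (chr3:90603771-90606045, plus strand) was followed 6836 bases further on by S100a6 (chr3:90612882-90624181), and S100a11 (chr3:93520488-93526287) was followed after 28792 bases by S100a10 (chr3:93555080-93564643). The annexins are scattered, with Anxa1 at chr19:20373428-20390944, Anxa2 at chr9:69453620-69491795, Anxa3 at chr5:96793339-96845966, Anxa5 at chr3:36448923-36475894, Anxa6 at chr11:54979108-55033445 and Anxa7 at chr14:20455260-20480133. Promoter sequence was taken from RefSeq for build GRCm38.p6 as the 250 bases before each start site, and 7 of the 10 members had a window, all but Anxa3, Anxa6 and S100a10. The windows below are shown because their genes span the range of responses to APAP, from the largest rise to the smallest that passed: S100a4 (chr3:90603520-90603769, plus strand), Anxa2 (chr9:69453433-69453682, plus strand), S100a6 (chr3:90612644-90612893, plus strand) and S100a11 (chr3:93520246-93520495, plus strand) rose many-fold after APAP, Anxa1 (chr19:20390672-20390921, minus strand) rose less, and Anxa7 (chr14:20479942-20480191, minus strand) had the smallest rise that passed. Each is written 5′ to 3′ on the strand of its gene, and capitals mark matches on either strand to the AP-1 motif TGANTCA, the TATA box TATAAA or the GC box GGGCGG.
S100a4: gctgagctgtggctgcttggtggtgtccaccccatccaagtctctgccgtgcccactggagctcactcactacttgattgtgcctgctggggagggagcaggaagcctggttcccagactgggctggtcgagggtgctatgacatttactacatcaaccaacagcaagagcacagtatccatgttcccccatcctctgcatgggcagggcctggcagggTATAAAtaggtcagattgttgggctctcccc
Anxa2: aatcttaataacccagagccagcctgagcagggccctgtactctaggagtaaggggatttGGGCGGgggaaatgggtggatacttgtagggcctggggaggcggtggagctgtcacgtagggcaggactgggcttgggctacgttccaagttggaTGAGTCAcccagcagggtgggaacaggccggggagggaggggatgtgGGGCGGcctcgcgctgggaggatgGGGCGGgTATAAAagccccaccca
S100a6: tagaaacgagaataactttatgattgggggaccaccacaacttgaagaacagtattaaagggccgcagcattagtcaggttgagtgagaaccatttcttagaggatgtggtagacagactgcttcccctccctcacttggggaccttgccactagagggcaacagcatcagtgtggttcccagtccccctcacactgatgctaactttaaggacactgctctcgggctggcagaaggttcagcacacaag
S100a11: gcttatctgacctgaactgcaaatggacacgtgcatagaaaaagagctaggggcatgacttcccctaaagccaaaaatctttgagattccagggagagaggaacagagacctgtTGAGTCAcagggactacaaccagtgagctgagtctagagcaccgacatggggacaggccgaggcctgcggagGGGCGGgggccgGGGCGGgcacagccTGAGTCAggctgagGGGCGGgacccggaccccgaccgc
Anxa1: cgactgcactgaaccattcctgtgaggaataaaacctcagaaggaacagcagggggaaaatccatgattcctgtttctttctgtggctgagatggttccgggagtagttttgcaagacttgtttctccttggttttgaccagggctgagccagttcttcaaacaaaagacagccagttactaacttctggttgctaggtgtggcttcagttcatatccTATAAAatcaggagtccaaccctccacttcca
Anxa7: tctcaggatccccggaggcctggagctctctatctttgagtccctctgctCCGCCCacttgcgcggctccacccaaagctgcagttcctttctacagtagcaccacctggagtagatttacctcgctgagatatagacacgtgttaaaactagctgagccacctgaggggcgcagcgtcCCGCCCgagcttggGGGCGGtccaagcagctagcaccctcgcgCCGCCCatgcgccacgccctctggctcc

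An AP-1 match was found in 2 of the 7 members with a window. It stood 95 bases before the start in Anxa2, and in S100a11 136 and 38 bases before it. Of the 32851 promoter windows of this length in the RefSeq table, 6.75% held this motif. TATA boxes were found in 3 members, Anxa1, Anxa2 and S100a4, and in 12.4% of all windows, and the S100a4 match lay 31 bases before the start. GC boxes were found in 3 members, with 3 matches each in Anxa2 and S100a11 and 4 in the Anxa7 window printed above, and in 32.7% of all windows. Neither S100a6 nor Anxa5 held any of the 3 motifs in these 250 bases. A second RefSeq window of Anxa7 (chr14:20480134-20480383) held 1 GC box. These matches describe the letters of the windows and not binding.

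Libraries held 60870399 to 74056505 counts for control livers, 50859599 to 61826952 after vehicle and 47391650 to 55379420 after hAAMs. The 10 members together took 0.0200% to 0.0259% of the counts of a control liver, 0.0451% to 0.0834% of a vehicle-treated liver and 0.0311% to 0.0765% of a hAAM-treated liver. Summed hepatocyte markers lay between 44100 and 82100 CPM (counts per 1000000, scaled by TMM) in every liver, far above the sums of the other marker lists. Vehicle replicate 3 and hAAM replicate 4 stood apart, because the difference between their counts was only 1.43 times that of counting noise. For the remaining 35 pairs of injured livers it was 5.65 to 24.4 times as large. For the members, the ratio of hAAM replicate 4 to vehicle replicate 3 ran from 0.884 for Anxa1 to 1.31 for S100a6. Whether they are separate livers, or 1 liver counted in both APAP groups, was not tested, and the library protocol names 14 libraries where 12 samples are listed. Both were kept, since the labels place them in different groups, and member counts are given below with and without them. No source says whether the numbered replicates of a group were housed or processed together. The p-values set each group difference against the spread between these livers and treat the livers as independent.

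Most of the family was higher after APAP. Against control mice, 9 of the 10 members were higher in vehicle-treated mice and none was lower (edgeR quasi-likelihood test, Benjamini-Hochberg FDR under 0.05), with log2 fold changes from 0.42 for Anxa7 to 5.02 for S100a4. Among all 22581 genes tested, 15.0% were called higher and 14.8% lower. In hAAM-treated mice 7 of the 10 members were higher than in control mice and none was lower, while 10.7% of all genes were called higher and 9.96% lower. Anxa6, Anxa7 and S100a10 did not pass in hAAM-treated mice, and Anxa6 did not pass in either. The median log2 fold change over the members was 2.19 with vehicle and 2.10 with hAAMs, beside 0.01 and 0.02 over all genes tested. S100a4 passed the low-count filter only through the APAP-treated livers, so it had to differ, and without it the counts were 8 of 9 and 6 of 9. Without the near-identical livers the counts over the 10 members were again 9 and 7. Both comparisons share the same 3 control livers and so are not independent of each other. Because the members were chosen with earlier results of these data known, their counts beside those of all genes are a description.

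**Figure D1:**
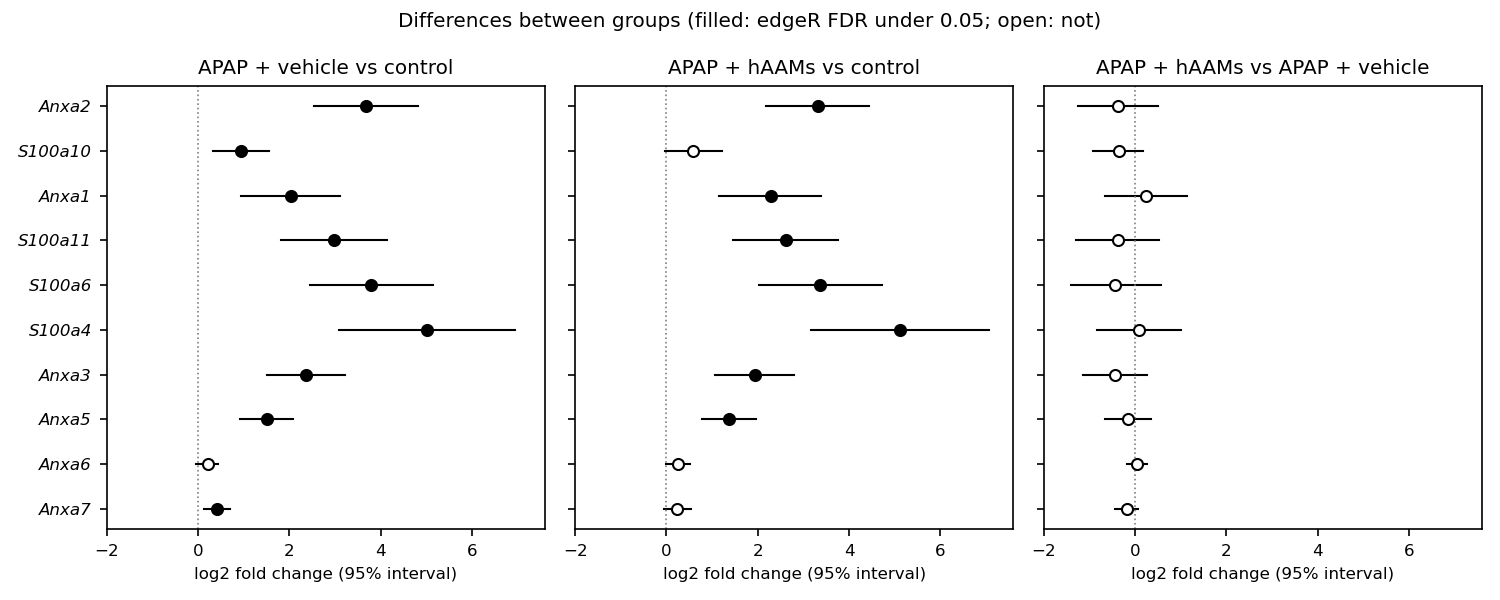
Log2 fold change (x axis) of each member (rows) in 3 comparisons, with lines for the 95% intervals of the fit. Filled points passed an FDR of 0.05 and open points did not: 9 members are filled for vehicle against control, 7 for hAAMs against control and none for hAAMs against vehicle.

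Markers of the cell types in the liver were counted beside the members. Bulk RNA cannot tell more cells of a type from more RNA per cell. The summed level of 7 monocyte and macrophage markers was 145 to 155 CPM in control livers, 211 to 374 CPM after vehicle and 209 to 423 CPM after hAAMs, with 5 of the 7 called higher in each APAP group and none at 0. The 7 stellate cell and fibroblast markers summed to 313 to 470, 491 to 887 and 486 to 1080 CPM, with Col1a1, Pdgfrb and Des called higher in each APAP group. The other 4 did not pass, with Col3a1 at 1.38 and 1.66 (log2 fold change with vehicle and with hAAMs), Lrat at 0.10 and 0.10, Dcn at -0.01 and 0.07 and Reln at -0.30 and -0.15. Sinusoidal endothelial markers summed to 295 to 323, 337 to 438 and 313 to 430 CPM, with 3 and 2 of 6 called higher and none lower, and Clec4g (-0.58 and -0.67) and Kdr (-0.10 and -0.13) had values below 0. Of 6 hepatocyte markers, Fah, Asgr1 and Hnf4a were called lower with vehicle and none with hAAMs. Bile duct markers ran from 40.3 to 65.5 CPM in control mice and up to 301 CPM after APAP, though 0 of 5 were called, and 0 of 6 neutrophil markers and 0 of 4 mesothelial markers were called. The part of these cells in the rise of the annexins and S100 genes was not tested.

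Anxa2, the annexin that carries the S100a10 dimer and anchors plasminogen activation at the cell surface, was the annexin with the largest log2 fold change. It was measured at 13.8, 10.2 and 8.26 CPM in the control livers. The 5 vehicle-treated livers held 129, 145, 75.2, 172 and 170 CPM, and the 4 hAAM-treated livers 176, 145, 32.5 and 72.3 CPM. Every injured liver lay above every control liver, with vehicle replicate 3 lowest in its group and hAAM replicates 3 and 4 below all vehicle-treated livers. The rise was 12.9-fold with vehicle (log2 fold change 3.69, SE 0.524, FDR 0.000676) and 9.91-fold with hAAMs (3.31, SE 0.522, FDR 0.00212). The Anxa2 gene shares 98 exon bases with the antisense gene Gm16144, and the sources do not say whether counting used the strand.

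S100a10, the light chain of the Anxa2 tetramer, changed far less than its partner. Its levels were 49.7, 26.5 and 36.5 CPM in control livers, 60.6, 67.8, 55.5, 78.3 and 101 CPM in vehicle-treated livers and 74.9, 62.2, 32.5 and 56.3 CPM in hAAM-treated livers. All vehicle-treated livers lay above the controls, but hAAM replicate 3 fell between control livers. S100a10 rose 1.94-fold with vehicle (log2 fold change 0.95, SE 0.281, FDR 0.0239). The hAAM group stood at 1.5-fold (0.59, SE 0.287, FDR 0.165). The vehicle call was lost without control replicate 2 (log2 fold change 0.75, FDR 0.0951) and without control replicate 3 (0.93, FDR 0.0749), and the hAAM value passed without hAAM replicate 3 (0.78, FDR 0.0415).

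Anxa1, a phospholipid-binding protein known as a glucocorticoid-induced brake on inflammation that signals through formyl peptide receptors, was measured at 3.79, 2.7 and 2.45 CPM in control livers. Vehicle-treated livers held 13.4, 11.2, 7.16, 18.4 and 10.8 CPM and hAAM-treated livers 22.2, 23.3, 5.96 and 6.33 CPM. The hAAM-treated livers fell apart, with replicates 1 and 2 above every vehicle-treated liver and replicates 3 and 4 below every one. The rise over control was 4.10-fold with vehicle (log2 fold change 2.03, SE 0.497, FDR 0.0101) and 4.84-fold with hAAMs (2.28, SE 0.514, FDR 0.0108).

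S100a11, the S100 protein that binds the amino-terminal tail of Anxa1, rose 7.94-fold with vehicle. Control livers were narrow at 5.11, 4.47 and 4.23 CPM. Vehicle-treated livers held 29.7, 34.4, 18.3, 55.7 and 44.4 CPM, and hAAM-treated livers 43.8, 42.5, 8.93 and 16.9 CPM. No injured liver overlapped the controls, and hAAM replicate 3, the lowest, was still above them. The log2 fold change was 2.99 with vehicle (SE 0.531, FDR 0.00206) and 2.61 with hAAMs (SE 0.532, FDR 0.00689). A processed pseudogene, S100a11-ps, was not analysed here, so reads it may share with the parent gene are uncertain.

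S100a6, also called calcyclin, binds several annexins and rises in growing cells. It lay at 1.52, 0.708 and 0.672 CPM in control livers, where 80, 45 and 34 reads were counted. In vehicle-treated livers it reached 12.5, 15.8, 4.86, 19.4 and 14.7 CPM, and in hAAM-treated livers 16.6, 13.5, 3.50 and 6.37 CPM. Neither APAP group overlapped the controls, and the lowest injured liver was again hAAM replicate 3. S100a6 rose 13.9-fold with vehicle (log2 fold change 3.8, SE 0.616, FDR 0.00131) and 10.4-fold with hAAMs (3.37, SE 0.617, FDR 0.0043).

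S100a4, known from fibroblasts and macrophages and for binding non-muscle myosin, was nearly absent from control livers. The control livers gave 0, 0 and 1 reads. Vehicle-treated livers gave 24, 11, 6, 23 and 17 reads and hAAM-treated livers 13, 27, 12 and 8 reads. All 9 injured livers lay above all 3 controls, at 0.116 to 0.500 CPM. Summed over livers and scaled to library size, the level was 44.6 times that of control with vehicle (81 reads against 1, 95% counting interval 7.79 to 1780) and 47.2 times with hAAMs (60 reads against 1, 8.15 to 1890). These intervals cover counting error only. The fitted log2 fold changes of 5.02 (SE 0.882, FDR 0.00196) and 5.11 (SE 0.898, FDR 0.00357) depend on the prior count and set no bound. They rest on the single control read, and were 6.93 and 7.03 without control replicate 3, which held it, and 4.48 and 4.57 without control replicate 2. Of its 584 exon bases 302 are shared with Gm42674, a gene model on the same strand that was not analysed here, and reads in that overlap may have been lost.

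Anxa3, an annexin known from neutrophils, rose 5.14-fold with vehicle (log2 fold change 2.36, SE 0.394, FDR 0.0015) and 3.8-fold with hAAMs (1.93, SE 0.397, FDR 0.0072). Control livers held 3.85, 3.59 and 4.01 CPM, the least spread, relative to the mean, among the members that rose. Vehicle-treated livers held 17.0, 21.9, 9.85, 24.9 and 24.4 CPM and hAAM-treated livers 23.0, 17.7, 7.42 and 9.80 CPM. All injured livers exceeded all controls. Its gene shares 112 exon bases with Gm42603, a gene model on the same strand.

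Anxa5, the annexin that binds phosphatidylserine and forms flat lattices on exposed membrane, was already abundant before injury. It was found at 49.1, 41.0 and 41.2 CPM in control livers, 114, 121, 88.6, 149 and 152 CPM in vehicle-treated livers and 145, 149, 67.1 and 86.7 CPM in hAAM-treated livers. Each APAP group lay above all controls, and hAAM replicate 3 was the injured liver closest to the controls. Anxa5 rose 2.85-fold with vehicle (log2 fold change 1.51, SE 0.266, FDR 0.00196) and 2.56-fold with hAAMs (1.36, SE 0.272, FDR 0.0063).

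Anxa6, the large annexin with a duplicated core, had the smallest change with vehicle and the second smallest, after Anxa7, with hAAMs. Control livers held 114, 93.7 and 94.3 CPM, vehicle-treated livers 111, 123, 111, 137 and 97.8 CPM, and hAAM-treated livers 132, 119, 118 and 112 CPM. The groups overlapped through control replicate 1, which was as high as several injured livers. The log2 fold change was 0.21 with vehicle (95% interval -0.04 to 0.45, FDR 0.185) and 0.26 with hAAMs (0.00 to 0.51, FDR 0.138), so the upper ends of the intervals correspond to 1.37-fold and 1.43-fold. With library size alone as the scaling, Anxa6 passed at 0.56 in each comparison (FDR 0.00682 and 0.0115), but under that scaling the median of all genes moved to 0.36 and 0.32.

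Anxa7, also called synexin, an annexin known for calcium-driven fusion of secretory vesicles, rose with vehicle (log2 fold change 0.42, SE 0.129, FDR 0.0276). Its control livers held 66, 50.4 and 61.0 CPM, and the vehicle-treated livers 73.5, 70.9, 73.7, 83.5 and 94.7 CPM, all above the controls. The hAAM-treated livers held 76.6, 71.8, 56.9 and 74 CPM and overlapped the controls through replicate 3. Their value of 0.24 (95% interval -0.05 to 0.53, FDR 0.222) did not pass. The vehicle call did not hold without control replicate 2 (log2 fold change 0.32, FDR 0.117), control replicate 3 (0.45, FDR 0.0649), vehicle replicate 4 (0.40, FDR 0.0555) or vehicle replicate 5 (0.35, FDR 0.053).

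**Figure D2:**
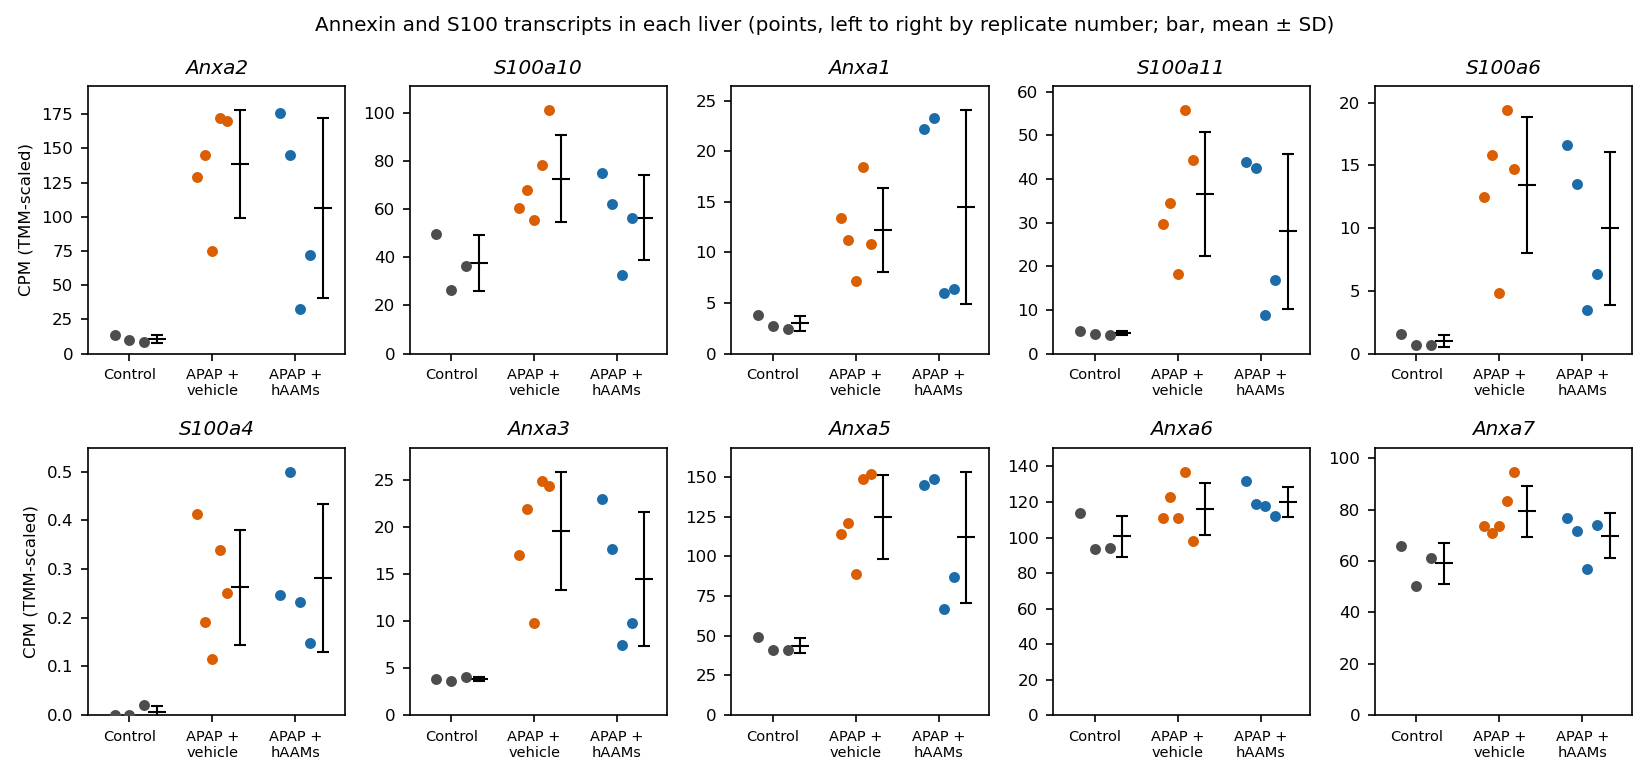
CPM (y axis, linear, from 0) of each member in each liver, with points placed by replicate number within control, APAP and vehicle, and APAP and hAAM groups, and bars for mean and SD. Injured livers stand above all controls for Anxa1, Anxa2, Anxa3, Anxa5, S100a4, S100a6 and S100a11, while the groups overlap for Anxa6.

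Groups of livers that do not overlap in CPM were counted as well. The vehicle-treated and control livers did not overlap for 9 members, all but Anxa6, and for 34.8% of all genes tested. The hAAM-treated and control livers did not overlap for 7 members and for 28.5% of all genes. S100a4 is included in each of these counts of members, although it passed the low-count filter only through the APAP-treated livers and had to differ. Vehicle-treated and hAAM-treated livers overlapped for all 10 members, and 1.40% of all genes did not overlap between them.

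Whether hAAMs changed the family was asked by comparing the APAP-treated groups directly. None of the 10 members was called, none had an unadjusted p under 0.05, and 0% of all genes tested passed in edgeR, while 1133 genes had an unadjusted p under 0.05 and DESeq2 called 1 gene, or 88 without the near-identical livers. Fitted values were lower with hAAMs for 7 members and higher for Anxa1, Anxa6 and S100a4. This split rests on single livers, since Anxa1 stood at -0.04 without hAAM replicate 1 and -0.09 without hAAM replicate 2, S100a4 at -0.34 without hAAM replicate 2 and -0.08 without vehicle replicate 3, and Anxa5 at 0.02 without hAAM replicate 3. Anxa2 stood at 0.770-fold of the vehicle group with a 95% interval of 0.420 to 1.41, and S100a6 at 0.744-fold with 0.375 to 1.47. Anxa3 had the fitted value furthest from no change, 0.738-fold with an interval of 0.453 to 1.2. The intervals were wide for the members with the largest rises and narrow for those that moved little, such as Anxa6 at 1.04-fold with 0.888 to 1.21 and Anxa7 at 0.881-fold with 0.739 to 1.05. The interval of S100a10 ran from 0.533-fold to 1.13-fold and that of Anxa5 from 0.634-fold to 1.27-fold. For Anxa1 (0.639-fold to 2.19-fold), S100a11 (0.408-fold to 1.45-fold) and S100a4 (0.564-fold to 2.02-fold), neither a rise nor a fall within the interval is excluded. Without the near-identical livers, again 0 members were called.

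The spread within the APAP groups was shared by most members. hAAM replicate 3 had the lowest level of the 9 injured livers for 8 of the 10 members. Vehicle replicate 3 was among the 3 lowest for 9 members and hAAM replicate 4 for 8. At the other end, vehicle replicate 4 was among the 4 highest for all 10 members, hAAM replicate 1 for 9 and vehicle replicate 5 for 8. In the vehicle group the low end rests on replicate 3, the liver nearly identical to hAAM replicate 4, since the other vehicle-treated livers were among the 3 lowest for 0 to 2 members. Counted as log2 CPM above the control mean, 3 values of injured livers lay below 0: S100a10 at -0.16 and Anxa7 at -0.05 in hAAM replicate 3, and Anxa6 at -0.03 in vehicle replicate 5.

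**Figure D3:**
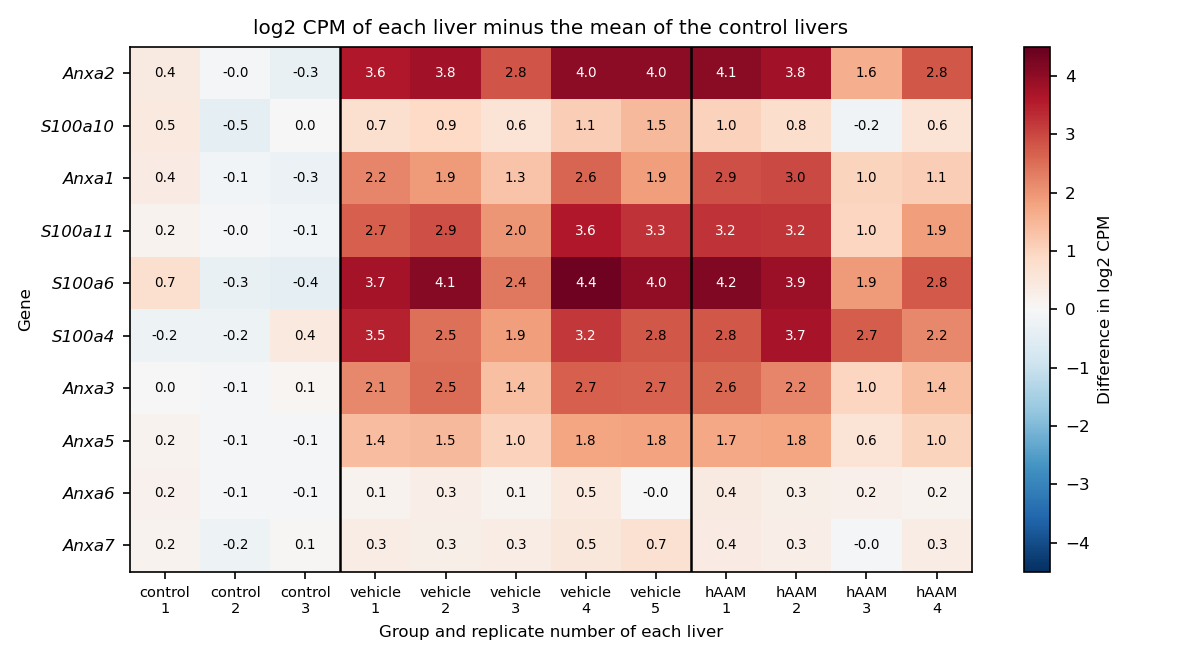
Difference in log2 CPM (colour and printed value) between each liver (columns) and the mean of the 3 control livers, for each member (rows). The columns of vehicle replicate 3, hAAM replicate 3 and hAAM replicate 4 are paler than those of the other injured livers for most members, and the rows of Anxa6 and Anxa7 stay near 0.

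Levels of different members were compared per kilobase of annotated exon. In control livers the order was Anxa6 (34.3 ± 3.86 CPM per kb, SD, n = 3), S100a10 (31 ± 9.61), Anxa5 (24.6 ± 2.62), Anxa7 (9.87 ± 1.33), S100a11 (9 ± 0.89), Anxa2 (2.88 ± 0.751), Anxa3 (1.05 ± 0.0589), Anxa1 (1.02 ± 0.245), S100a6 (0.708 ± 0.353) and S100a4 (0.0113 ± 0.0195). Ranges over livers overlapped for the neighbours Anxa6 and S100a10, S100a10 and Anxa5, Anxa7 and S100a11, Anxa3 and Anxa1, and Anxa1 and S100a6. The family thus fell into steps before injury, with Anxa6, S100a10 and Anxa5 on top. After APAP and vehicle S100a11 led (71.4 ± 27.9 CPM per kb, n = 5), beside Anxa5 (70.2 ± 14.7) and S100a10 (59.9 ± 14.9), and Anxa2 (37 ± 10.6) reached the level of Anxa6 (39.6 ± 5.11). With hAAMs Anxa5 led (63 ± 23.2 CPM per kb, n = 4), followed by S100a11 (54.9 ± 34.8), S100a10 (46.6 ± 14.7), Anxa6 (41 ± 2.88) and Anxa2 (28.5 ± 17.6). All of these upper neighbours overlapped in range in the injured groups. S100a4 stayed last, at 0.449 ± 0.201 CPM per kb with vehicle and 0.483 ± 0.259 with hAAMs.

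**Figure D4:**
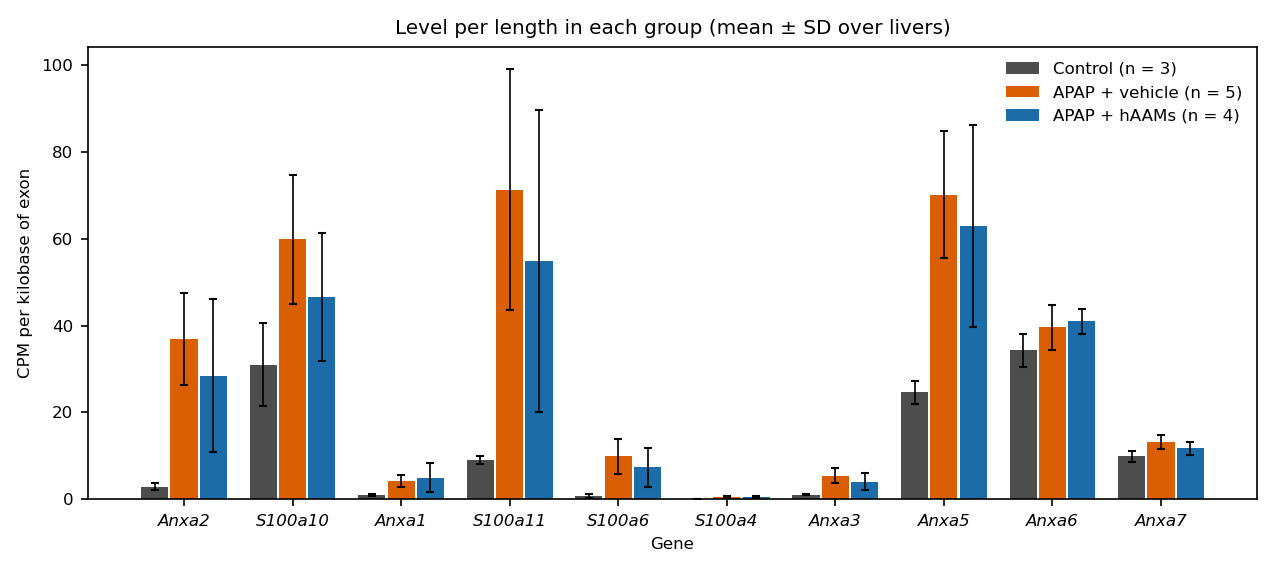
Mean level per length (y axis, CPM per kilobase of exon, from 0) of each member in the 3 groups, with bars for SD over 3 control, 5 vehicle-treated and 4 hAAM-treated livers. Anxa2 and S100a11 move from 2.88 and 9 in control to 37 and 71.4 with vehicle, while Anxa6 stays between 34.3 and 41.

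The balance between binding partners shifted with injury. For every unit of S100a10 per length, control livers held 0.0735 to 0.125 units of Anxa2. This ratio was 0.44 to 0.715 in vehicle-treated livers and 0.326 to 0.764 in hAAM-treated livers. The light chain thus had the higher level per length in all 12 livers, but by less after APAP. Length here is that of all annotated exons of a gene together, so the ratios do not count transcript molecules. The ratio of Anxa1 to S100a11 was 0.102 to 0.130 in control livers, 0.0428 to 0.0792 in vehicle-treated livers and 0.0658 to 0.117 in hAAM-treated livers. Here the S100 partner gained on its annexin in vehicle-treated livers, with no overlap with control, and hAAM-treated livers overlapped both. The ratio of Anxa2 to S100a11 went the other way, from 0.268 to 0.369 in control livers to 0.424 to 0.592 with vehicle and 0.467 to 0.587 with hAAMs, without overlap with control in either group. The ratio of Anxa6 to Anxa2 was 10.5 to 14.5 in control livers, 0.733 to 1.87 in vehicle-treated livers and 0.953 to 4.62 in hAAM-treated livers. The ratios describe transcripts and were not tested.

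The pattern of each member over the 12 livers was set against that of other genes by the root mean square difference in log2 CPM, after subtracting each gene's control mean. S100a6 was closest to Anxa2 at 0.248, closer than any of the 22571 other genes searched. Outside the family the 5 closest genes to Anxa2 were Plat (0.322), Sh3pxd2b (0.351), Adam12 (0.384), Meltf (0.417) and Shc2 (0.463). Meltf had a mean of 0.0116 CPM in control livers, under the low-count cutoff of 0.18 CPM. Like S100a4 it passed the filter only through APAP-treated livers, so a rise was built in. Plat, the tissue plasminogen activator, went from 0.807 CPM in control mice to 12.7 with vehicle and 10.5 with hAAMs, and Adam12, a membrane metalloprotease, from 1.41 to 15.1 and 12.1. Sh3pxd2b, a podosome scaffold, went from 3.59 CPM to 33.3 and 29.9. Anxa6 and Anxa7 were each other's nearest member at 0.248, and so were Anxa1 and Anxa3 at 0.406, but for these many other genes lay closer (between 69 and 2966). S100a10 was nearest to Anxa7 (0.46) and not to Anxa2, S100a11 to Anxa3 (0.559) and not to Anxa1, Anxa5 to S100a10 (0.571) and S100a4 to S100a11 (0.662). Here too other genes lay closer than the nearest member, 1206 for S100a10, 72 for S100a11, 1295 for Anxa5 and 48 for S100a4. The points share their libraries and the measure favours genes with like fold changes, so it is a description.

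Among annexins and S100 genes outside the 10 members, 1 of 5 annexins and 2 of 6 S100 genes were called, all higher, beside the 15.0% (vehicle) and 10.7% (hAAMs) of all genes called higher. The annexin was Anxa4, an annexin of bile duct and other epithelia, which went from 35 ± 2.35 CPM in control mice to 62.9 ± 4.78 with vehicle (log2 fold change 0.85, FDR 0.000752) and 58.2 ± 10.1 with hAAMs (0.73, FDR 0.00331). Anxa11 had values of 0.18 and 0.08, and Anxa13, the intestinal annexin, -0.14 and -0.19. Of 6 other S100 genes tested, S100a16 (0.63 and 0.55, FDR 0.00451 and 0.015) and S100g (1.62 and 2.25, FDR 0.0213 and 0.00705) were higher in each APAP group. S100g lay at or below 0.0629 CPM in every control liver, under the low-count cutoff of 0.18 CPM, so like S100a4 it passed the filter only through APAP-treated livers and had to differ. The neutrophil S100 genes S100a8 and S100a9 stood at 0.81 (FDR 0.421) and 0.13 (FDR 0.903) with vehicle. With hAAMs they stood at 0.38 (FDR 0.751) and -0.35 (FDR 0.76). The median over these lists was 0.48 for the annexins and 0.38 for the S100 genes with vehicle, beside 0.01 over all genes.

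Membrane repair needs further proteins that annexins work with. Of 33 such genes tested, 12 were higher and 2 lower in vehicle-treated than in control mice, and 8 were higher and 2 lower in hAAM-treated mice, with medians of 0.23 and 0.10. Over all genes, 15.0% were called higher and 14.8% lower with vehicle, and 10.7% and 9.96% with hAAMs. Without control replicate 3 the number called with hAAMs was 5. Among the genes called, the largest changes were in Ahnak2 (log2 fold change 2.47 with vehicle, FDR 0.000995, and 1.63 with hAAMs, FDR 0.0123), Myof (2.04, FDR 0.000968, and 2.07, FDR 0.00189), Ahnak (1.90, FDR 0.00172, and 1.58, FDR 0.00756) and Ehd2 (1.76, FDR 0.00867, and 1.59, FDR 0.0225). Ahnak is the giant scaffold that the Anxa2 and S100a10 complex recruits to the membrane, and it rose from 192 ± 46.5 CPM to 716 ± 179 with vehicle. Myof and Dysf are ferlins, calcium sensors for vesicle fusion, and Dysf rose by 0.86 and 0.63 (FDR 0.00494 and 0.0345). Calpain 2, a protease of the calcium-activated repair response encoded by Capn2, rose by 1.08 and 0.83 (FDR 0.00191 and 0.0127). Smpd1, acid sphingomyelinase, which reshapes the wounded membrane, fell from 57.4 ± 1.86 to 36.4 ± 2.38 CPM with vehicle (-0.66, FDR 0.000164) and 37.9 ± 2.82 with hAAMs (-0.60, FDR 0.000713). Fer1l5 fell too, by 1.45 and 1.05 on the log2 scale. Of the ESCRT genes, which shed damaged membrane, Chmp4c rose by 1.38 and 0.95 (FDR 0.00187 and 0.0195) and Chmp1a by 0.23 with vehicle (FDR 0.0262), with 0.10 and an FDR of 0.34 with hAAMs. Chmp2a stood at 0.09 and 0.11, Chmp3 at -0.07 and -0.10 and Vps4b at 0.03 and 0.00, none of which passed.

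**Figure D5:**
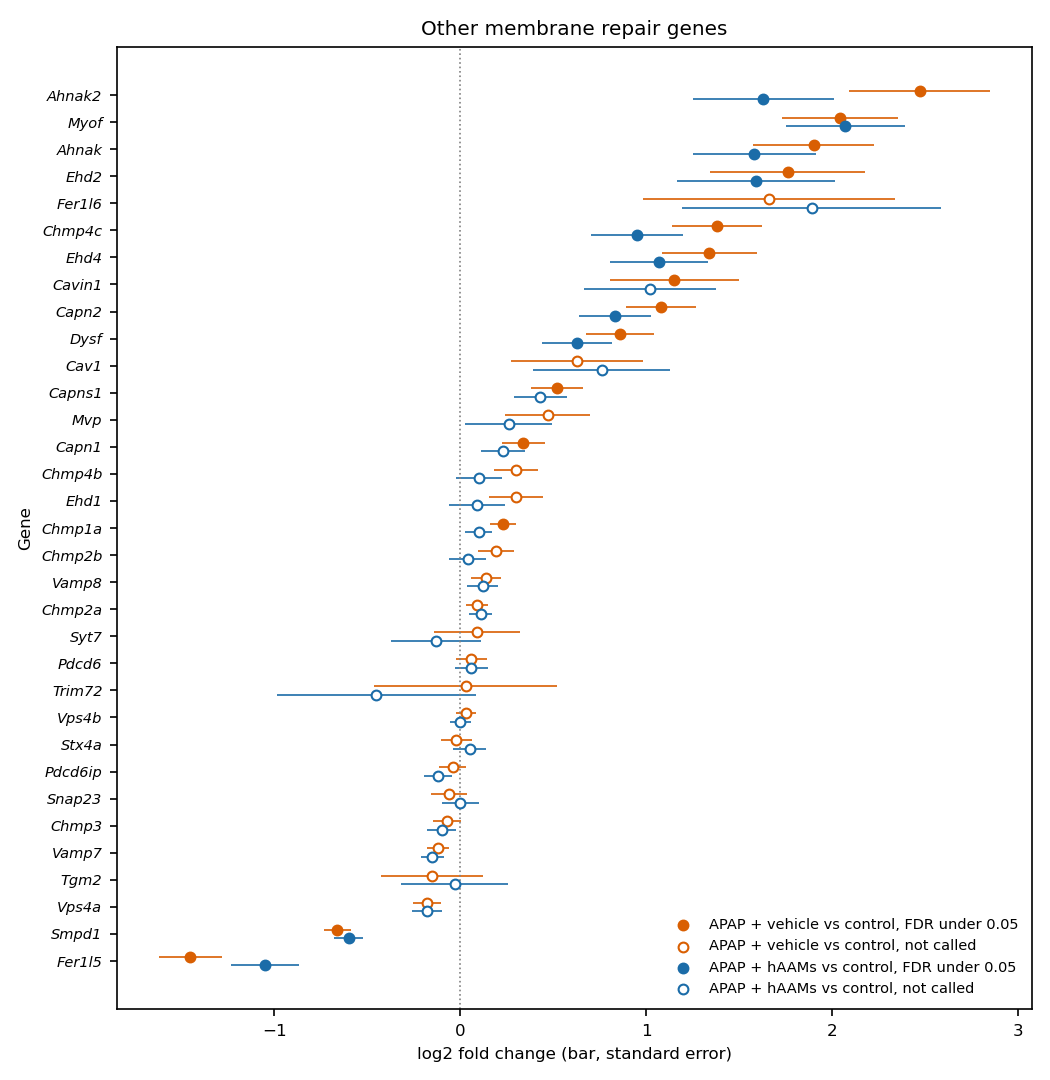
Log2 fold change (x axis) against control of 33 other membrane repair genes (rows), with lines for the standard error, for vehicle-treated and hAAM-treated mice. Filled points passed an FDR of 0.05: 12 genes are filled above 0 and 2 below 0 with vehicle, and 8 above and 2 below with hAAMs.

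Receptors and ligand systems of annexins and S100 proteins were counted in the same way. Of 12 such genes, 6 were higher and 3 lower with vehicle (15.0% and 14.8% of all genes), and 5 were higher and 1 lower with hAAMs (10.7% and 9.96% of all genes). The plasminogen activators, whose activity the Anxa2 and S100a10 tetramer concentrates on cell surfaces, were among the higher ones, with Plat at 3.98 and 3.70 (FDR 0.00132 and 0.00357), Plau at 2.99 and 3.08 (FDR 0.00164 and 0.00298) and the urokinase receptor Plaur at 2.68 and 2.15 (FDR 0.00737 and 0.0296). Plasminogen itself, a hepatocyte product encoded by Plg, was lower with vehicle (-0.68, FDR 0.0329), and with hAAMs its value was -0.41 (FDR 0.223). Fpr1, a formyl peptide receptor of the Anxa1 pathway, was lower in each APAP group (-1.09, FDR 0.00587, and -1.21, FDR 0.00794), and Fpr2 stood at -0.32 and -0.58 (FDR 0.657 and 0.463). Tlr4 rose by 1.06 and 1.07 (FDR 0.008 and 0.0134), and Ager, the receptor for advanced glycation end products that binds S100 proteins, stood at 0.29 and 0.16 (FDR 0.343 and 0.647). Sri, the calcium-binding protein sorcin that binds Anxa7, rose by 0.60 and 0.48 (FDR 0.000656 and 0.00421). Between the APAP groups none of the genes of these 4 lists passed.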

How the data were processed

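Counts per gene from 12 livers were analysed. The authors extracted RNA from frozen liver, prepared rRNA-depleted directional libraries, trimmed reads with Cutadapt 4.6, aligned them with STAR 2.7.1a to GRCm38 and counted reads with summarizeOverlaps, whose mode and strand setting are not given in the sources used here. The deposited values are raw counts, not normalized, for 24187 Ensembl genes, each with at least 15 over all livers. Groups came from the sample labels. Symbols came from GENCODE M21.

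Counts were filtered with filterByExpr, scaled by TMM and tested with edgeR 4.0.16 (R 4.3.3) in one quasi-likelihood fit of all groups, which share an estimate of the spread (biological coefficient of variation 0.214). FDR is the Benjamini-Hochberg adjusted p over 22581 genes, two-sided, with a threshold of 0.05. log2 CPM used a prior count of 2. DESeq2 1.42.0, other scalings and filters, and leaving out livers were alternatives, and the scripts were tested on simulated data. The depth of 47391650 to 74056505 counts per liver set the precision, and the lowest member count was 0, for S100a4 in control livers.

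All 10 members were named in every comparison. From each pathway list the 4 called genes with the largest absolute log2 fold change were named, as were the 5 genes nearest to Anxa2 and each member's nearest member. Other genes were named after their values were seen. Members and lists were chosen with earlier results of these data known. Promoter windows came from RefSeq (GRCm38.p6).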

Additional observations from a re-analysis of the deposited data

How the results depend on the processing

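Values of the members were recomputed under 22 alternatives. Of 657 such values, 639 kept their direction and their side of the threshold, 8 no longer passed, 5 newly passed and 5 changed sign. Anxa1, Anxa2, Anxa3, Anxa5, S100a6 and S100a11 passed against control in each APAP group under every alternative run, and S100a4 did in the 21 in which it was tested, being absent when at least 10 counts were required in every liver. With library size alone as the scaling, all 10 members passed in each comparison with control, with Anxa7 at 0.55 (FDR 0.026) and S100a10 at 0.92 (FDR 0.0439) for hAAMs, but the median of all genes had moved as well. Under that scaling 9747 genes were called for vehicle against control and 7340 for hAAMs against control, and 25 and 20 of the membrane repair genes were called. Of 264 counts of called genes in the pathway lists, 251 stayed within 1.5 times the value given. The fit of only the 2 groups compared called 2729 genes for hAAMs against control. DESeq2 called 1 gene between the APAP groups, and 88 without the near-identical livers, none of them a member.

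No source says whether the replicate numbers pair the livers. Same-numbered livers of different groups had deviations that correlated between -0.458 and 0.385, with 3 of 10 pairs above 0.1. Different-numbered livers ran from -0.477 to 0.502, so the correlations do not decide it. With the replicate block 7, 7 and 0 members were called and 4253 and 2959 genes in all against control, and Anxa7 (0.31, FDR 0.0984) and S100a10 (0.77, FDR 0.0627) no longer passed with vehicle.

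Leaving out each liver in turn, 7 to 9 members were called with vehicle, 7 to 8 with hAAMs and 0 to 0 between the APAP groups. Over all genes the calls ran from 4633 (without control replicate 3) to 7197 with vehicle, from 2419 (without control replicate 3) to 5456 with hAAMs, and from 0 to 1 between the APAP groups. The hAAM calls were also fewer without control replicate 1 (3027), hAAM replicate 1 (2799) and hAAM replicate 2 (2942). Between the APAP groups, values not called in any of these fits changed sign for 3 members. S100a4 ran from -0.34 (without hAAM replicate 2) to 0.30 (without vehicle replicate 1), with -0.08 without vehicle replicate 3. Anxa1 ran from -0.09 (without hAAM replicate 2) to 0.50 (without hAAM replicate 3), with -0.04 without hAAM replicate 1. Anxa5 ran from -0.33 (without hAAM replicate 2) to 0.02 (without hAAM replicate 3). The cause was not tested. S100a4 rests on 0 to 27 reads per liver.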

Other observations

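Further marker lists were counted in the same way. Kupffer cell markers summed to 166 to 229 CPM in control livers, 195 to 306 CPM after vehicle and 198 to 282 CPM after hAAMs, with Marco, a scavenger receptor, the only one of 5 called higher. Platelet markers, whose cells also carry annexins, summed to 3.90 to 4.19, 6.29 to 15.8 and 4.76 to 11.4 CPM, with 3 of 4 called higher with vehicle and 1 with hAAMs. Erythroid genes ran from 119 to 193 CPM in control mice, up to 1410 CPM with vehicle and up to 521 CPM with hAAMs, with 2 of 4 called higher and 1 lower with vehicle and 1 lower with hAAMs. Proliferation genes summed to 17.8 to 22.5, 15.2 to 61.1 and 21.5 to 85.2 CPM, and 0 of 4 were called in either comparison with control.

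B cell markers summed to 4.68 to 8.18 CPM in control mice and reached 59.7 CPM in vehicle replicate 5, and 0 of 5 were called. T and NK cell markers stayed between 0.71 and 2.61 CPM in all livers, with 0 of 5 called. Of the 6 hepatocyte markers, Fah (-0.56), Asgr1 (-0.44) and Hnf4a (-0.38) were called lower with vehicle, while Alb (0.15), Apoa1 (0.15) and Ttr (-0.06) did not pass. None of the 6 passed with hAAMs, and the difference between the APAP groups did not pass for any of the 6.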
